A study of Rattus norvegicus with 22 samples.

Results

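The genes described here encode proteins of the hyaluronan-based matrix of the spinal cord: the chondroitin sulfate proteoglycans Vcan, Ncan, Bcan, Acan, Cspg5 and Ptprz1, the tenascins Tnc and Tnr, and the hyaluronan-binding proteins Tnfaip6 and Cd44. They were chosen by gene symbol, and 19 of the 31042 probe sets tested, or 10 of the 14217 genes with a symbol of their own, belonged to them. A probe set is a group of short array oligonucleotides that measure one transcript, and the brightest one on average over all arrays (by log2 signal) represents each gene below. Vcan had 5 probe sets, Bcan, Acan, Ptprz1, Tnfaip6 and Cd44 had 2 each, and Ncan, Cspg5, Tnc and Tnr had 1 each.

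The study measured RNA of rat spinal cord on 22 one-colour oligonucleotide arrays in 8 groups. Of these, 3 arrays came from normal cord, 3 from cord after laminectomy, the opening of the vertebral arch without an injury to the cord, and 2 from cord that was contused and left untreated. In every contused group a weight of 10 g with a tip of 2.5 mm fell 25 mm onto the cord at thoracic level T10, and the samples represent 24 h after contusion. The treated contused groups were clenbuterol, a beta-2-adrenergic agonist (150 mg/kg as labelled, 20 min after injury, 2 arrays), X-ray (10 Gy, 20 min after injury, 3 arrays), tempol, a superoxide-scavenging nitroxide (275 mg/kg, 20 min after injury, 3 arrays), buthionine sulfoximine or BSO, an inhibitor of glutathione synthesis (150 mg/kg, 24 h before injury, 3 arrays), and tempol plus BSO at those doses and times (3 arrays). All 6 contused groups carried the same injury, and the 5 treatments were compared with the same 2 untreated contused arrays. The labels used here give neither the rats' strain, sex or age nor whether arrays stand for separate animals, so the spread behind every p-value is that among the samples at hand and may be technical.

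The chondroitin sulfate proteoglycans carry sulfated sugar chains on a protein core. Versican, neurocan, brevican and aggrecan are lecticans: one end of the core binds hyaluronan and the other binds tenascins, so that hyaluronan, lecticans and tenascin-R form the perineuronal nets around neurons. After spinal cord injury the chondroitin proteoglycans are known as components of the glial scar that limit the growth of axons. TSG-6, the product of Tnfaip6, transfers heavy chains onto hyaluronan and is known as a gene induced by inflammatory cytokines, and CD44 is the main cell-surface receptor for hyaluronan.

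RefSeq promoter sequences (build GRCr8) matched 8 of the 10 genes, with no match for Cspg5 and Ptprz1. Each window runs from 250 bases before to 50 bases after the annotated start of the gene and was searched on both strands for the letters TGANTCA, which AP-1 factors bind, for the TATA box motif written TATAAA, and for an NF-kB motif. The windows of Tnfaip6, Tnc and Vcan are shown because these genes had the 3 largest differences among the representative probe sets between contused and uninjured groups, and capitals mark the motif found.
Tnfaip6 (chr3:56911148-56911447, plus strand): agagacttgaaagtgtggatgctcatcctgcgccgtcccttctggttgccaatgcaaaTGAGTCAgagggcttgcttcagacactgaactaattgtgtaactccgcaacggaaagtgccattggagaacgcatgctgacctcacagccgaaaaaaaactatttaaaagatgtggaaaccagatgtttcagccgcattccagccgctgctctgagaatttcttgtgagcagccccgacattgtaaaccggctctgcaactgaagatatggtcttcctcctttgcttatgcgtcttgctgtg
Tnc (chr5:82476082-82476381, minus strand): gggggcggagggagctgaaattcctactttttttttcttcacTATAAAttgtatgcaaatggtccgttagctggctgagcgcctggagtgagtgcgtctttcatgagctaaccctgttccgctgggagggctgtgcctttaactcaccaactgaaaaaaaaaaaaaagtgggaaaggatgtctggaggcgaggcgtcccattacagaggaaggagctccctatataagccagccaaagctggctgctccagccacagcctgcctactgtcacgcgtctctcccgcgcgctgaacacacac
Vcan (chr2:22595906-22596205, minus strand): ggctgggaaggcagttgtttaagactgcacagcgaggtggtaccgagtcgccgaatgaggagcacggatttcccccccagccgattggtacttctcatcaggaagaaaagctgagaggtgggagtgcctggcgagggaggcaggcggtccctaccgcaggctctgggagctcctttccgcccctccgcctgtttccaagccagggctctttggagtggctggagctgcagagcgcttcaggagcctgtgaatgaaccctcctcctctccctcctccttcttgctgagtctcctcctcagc
The Tnfaip6 window held an AP-1 match from -192 to -186 relative to the start, and 7.3% of 27457 promoter windows of the same 300 bases held at least 1 such match. The Tnc window held a TATAAA match from -208 to -203, present in 14.3% of all windows. Only the letters TATAAA were searched, so other forms, such as the unmarked tatataag nearer the start in the Tnc window, were not counted. The Vcan window, the first of 2 entries for that gene, held none of the 3 motifs, and the NF-kB motif, found in 4.2% of all windows, occurred among the 8 members only in Acan. None of the matches overlapped another motif. These are matches of letters and were not tested as binding sites.

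Each array had been scaled by the submitters to the same trimmed mean signal of about 250 (249.99 to 250.05), with array medians of 142.9 to 164.9. Laminectomy array 2 and normal array 1 stood apart from the rest: their median correlations of log2 signal with the other arrays were 0.667 and 0.685, against 0.725 to 0.785 for the remaining 20, and their hybridization spikes were the brightest, at 13.68 and 12.66 log2 units. Calls of members are given with and without them, and other differences without them only in some cases. Every signal was above 0, the lowest being 0.3, and no detection calls were used. A signal above 0 therefore does not show that a marker was present. The lowest signal on any array was 8054 for Gfap of astrocytes, 19106 for Mbp of oligodendrocytes and 870 for Snap25 of neurons. Other markers were dim, such as the astrocyte gene Gjb6, down to 8.6, and the neutrophil gene Mmp8, down to 4.1. The summed signal of 9 neuron markers was 17016 to 37697 on uninjured arrays and 5170 to 19078 on contused arrays, and that of 3 neutrophil markers was 232 to 683 on uninjured and 749.5 to 3828 on contused arrays.

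In geometric mean signal of the representative probe sets, Tnfaip6, Vcan and Tnc were higher in every contused group than in either uninjured group. Of the matrix genes only Tnfaip6 passed the threshold in the fit over all arrays described next, and not for contusion against laminectomy. The difference between Tnfaip6 and the other 2 genes is therefore one of passing a threshold. Tnfaip6 signal was 87.2, 119.8 and 41.7 on the normal arrays, 195, 263 and 180.3 after laminectomy, and 485 and 512 after contusion. The treated contused arrays gave 595 and 494 with clenbuterol, 615, 923 and 1006 with X-ray, 312, 233 and 343 with tempol, 288, 217 and 411 with BSO, and 343, 267 and 367 with tempol plus BSO. The normal arrays were below every other array, the X-ray arrays were above every other array, and 14 of 16 contused arrays lay above the highest uninjured array. The 2 that did not were 1 tempol array and 1 BSO array, which lay below laminectomy array 2. In tissue samples of this kind a change in the number of cells of a type and a change in RNA per cell cannot be told apart.

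With limma over all 22 arrays and Benjamini-Hochberg adjustment over all probe sets, Tnfaip6 was 6.58-fold higher in untreated contused cord than in normal cord (log2 difference 2.72 ± 0.47 SE, n = 2 and 3, adjusted p = 0.0390). It was the only one of the 19 member probe sets past an adjusted p of 0.05, called below, in a comparison where 0.0483% of all probe sets were called. Over the mean of the 6 contused groups against the mean of the 2 uninjured groups it was 3.40-fold higher (1.77 ± 0.25, n = 16 and 6, adjusted p = 0.00219), again as the only member called where the background was 0.319%. That comparison mixes injury and treatment. The probe set also passed the limma F test over all 8 groups (adjusted p = 0.0234), which called 0.0612% of all probe sets. That F test call was lost without laminectomy 2 and normal 1 (adjusted p = 0.0866) and without any 1 of 9 arrays in turn: normal 1 or 3, laminectomy 1 or 3, contusion 2, X-ray 1, 2 or 3, or tempol 1 (adjusted p 0.0504 to 0.108). With the contusion and normal groups alone in the fit, the contusion difference had an adjusted p of 0.832, and without normal 1 and laminectomy 2 it was 2.82 at an adjusted p of 0.0654. The call was also lost when any 1 of 18 of the 22 arrays was left out (adjusted p 0.0508 to 0.240) and held only without normal 2, laminectomy 2, X-ray 1 or BSO 2 in turn. The call over all contused groups held in each of these settings where it could be computed (adjusted p at most 0.0111), and was 1.90 at an adjusted p of 0.00852 without laminectomy 2 and normal 1.

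On the representative Tnfaip6 probe set (1371194_at) laminectomy stood between normal cord and every contused group in mean signal. It was called against neither normal cord nor untreated contusion. The labels used here give no time of collection for laminectomy or normal cord, so time after surgery is not known to match the 24 h of the contused groups. On 1371194_at laminectomy exceeded normal cord by 1.47 ± 0.42 log2 units (limma adjusted p = 0.593) with no overlap of arrays, and contusion exceeded laminectomy by 1.25 ± 0.47 (adjusted p = 0.925), again with no overlap. On the second Tnfaip6 probe set (1371193_at) the same differences were unequal, at 2.87 ± 0.87 (adjusted p = 0.630) and 0.44 ± 0.97 (adjusted p = 0.985). There the geometric mean after laminectomy (237.7) lay above those with clenbuterol (218.5) and X-ray (180.8). In geometric mean signal of 1371194_at the groups ran from normal (75.8) through laminectomy (210.0), tempol (292), BSO (295), tempol plus BSO (323), contusion (498) and clenbuterol (542) to X-ray (829.8). Neighbours in this order overlapped except at 3 places: normal and laminectomy, tempol plus BSO and contusion, and clenbuterol and X-ray. The gaps there were 1.47 ± 0.42, 0.63 ± 0.47 and 0.61 ± 0.47 log2 units.

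**Figure D1:**
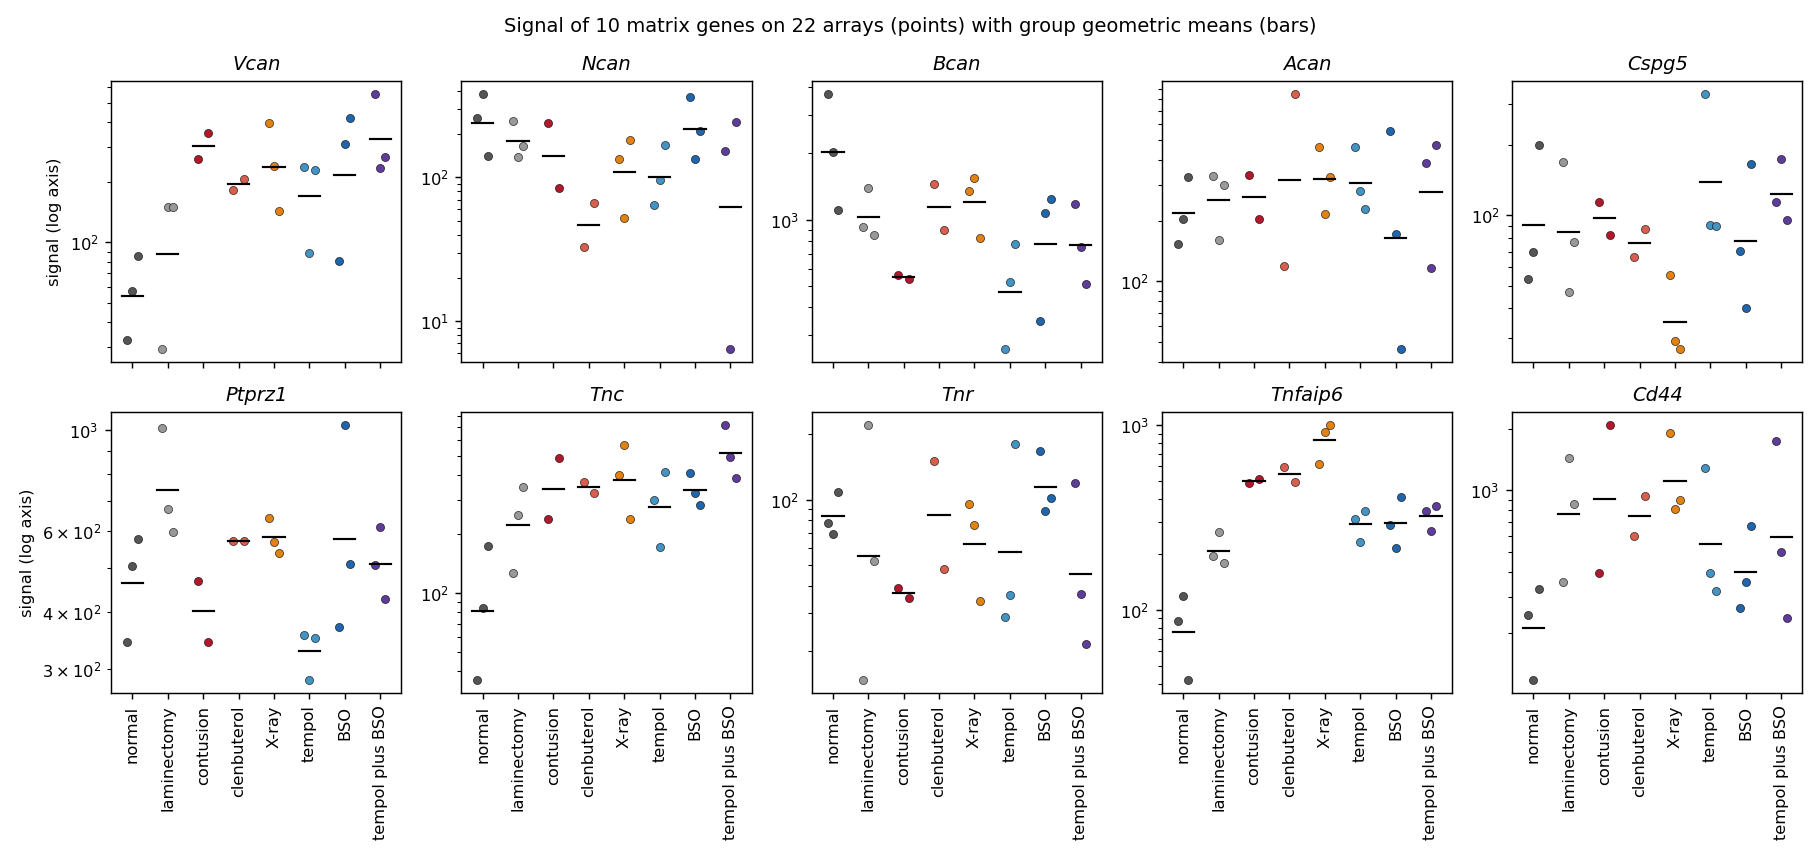
Signal (log axis) of the representative probe set of each of the 10 genes on every array, by group; points are arrays and bars are geometric means of the 2 or 3 arrays of a group. Tnfaip6 is lowest in normal cord (41.7 to 119.8) and highest after X-ray (615 to 1006), while most other genes overlap between groups.

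Cd44 gave a different picture with each of its probe sets. The representative one (1368921_a_at) read 247, 118 and 331 in normal cord, 358.5, 1447 and 858 after laminectomy, and 394.5 and 2089 after contusion. The contused arrays ranged from 239 to 2089 with a median of 635, and only 3 of 16 exceeded the highest uninjured array. Its difference over all contused groups was 0.75 ± 0.46 (limma adjusted p = 0.600). The other probe set (1387952_a_at) spread less: 279, 115 and 112.5 in normal cord, 205, 486 and 163 after laminectomy, and 481 and 462 after contusion. Contused arrays had 229 to 585 there, and laminectomy 2, at 486, was the highest uninjured array. The difference was 1.08 ± 0.27 (adjusted p = 0.108). Without laminectomy 2 it was 1.31 and called (adjusted p = 0.0444), and without laminectomy 2 and normal 1 it was 1.53 (adjusted p = 0.00885). The probe sets correlated at r = 0.55 over the 22 arrays, given as a description of arrays that share their groups.

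The tenascins differed from each other. Tnc, a tenascin made by reactive astrocytes and during development, read 36.1, 84.6 and 173.5 in normal cord, 126.5, 249.9 and 349 after laminectomy, and 238 and 487.5 after contusion. The treated arrays lay between 171 (tempol) and 719 (tempol plus BSO). All contused arrays but 1 lay above the highest normal array, and 9 of 16 lay above the highest uninjured array. Tnc differed by 1.42 ± 0.33 over all contused groups (limma adjusted p = 0.0914) and by 2.07 ± 0.63 between contusion and normal cord (adjusted p = 0.432). Laminectomy already exceeded normal cord by 1.46 ± 0.57 (adjusted p = 0.799), and contusion exceeded laminectomy by 0.61 ± 0.63. Without normal 3, the highest normal array, the difference over all contused groups was 1.69 and called (adjusted p = 0.0393). Tnr, the tenascin of perineuronal nets, made by oligodendrocytes and some neurons, ranged from 14.6 to 221.5 on uninjured and 21.4 to 179.8 on contused arrays, and its difference was -0.13 ± 0.51 (adjusted p = 0.958). Its 3 laminectomy arrays alone spanned 14.6 to 221.5, and without laminectomy 2 the sign turned (0.37).

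Among the lecticans, Vcan had the largest difference. Vcan encodes versican, which in the nervous system is made by cells of the oligodendrocyte lineage and in inflamed tissue also by myeloid and stromal cells. Its representative probe set read 32.7, 57.1 and 85.4 in normal cord, 29.3, 149.5 and 150.9 after laminectomy, and 262 and 350.5 after contusion. The treated arrays gave 184 and 207 with clenbuterol, 397, 241 and 144 with X-ray, 239, 88.9 and 231 with tempol, 80.7, 309 and 417 with BSO, and 553, 237 and 267 with tempol plus BSO. All but 3 of the 16 contused arrays lay above the highest uninjured array. The exceptions were 1 array each of X-ray, tempol and BSO. Vcan differed by 1.78 ± 0.41 over all contused groups (limma adjusted p = 0.0875), by 2.48 ± 0.78 between contusion and normal cord (adjusted p = 0.435) and by 1.80 ± 0.78 between contusion and laminectomy (adjusted p = 0.925), with no overlap in the last 2. Without BSO 1, the lowest contused array, the first of these was 1.90 and called (adjusted p = 0.0415). The other 4 Vcan probe sets gave 0.72, -0.01, 0.71 and 1.45, none called, and correlated with the first at r = 0.15 to 0.36 over 22 arrays. These probe sets were dimmer, and 1371233_at read 4.4 to 35.3 on the uninjured arrays.

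Bcan and Ncan, the nervous-system lecticans made mainly by astrocytes and, for neurocan, also by neurons, pointed the other way without a call. Bcan (1387934_at) read 3729, 2019 and 1102 in normal cord, 927, 1388 and 849 after laminectomy, and 561 and 536 after contusion. Contused arrays ranged from 258.5 to 1553 with a median of 803, and 9 of 16 lay below the lowest uninjured array. The difference over all contused groups was -0.90 ± 0.34 (limma adjusted p = 0.331), and between contusion and normal cord -1.89 ± 0.64 (adjusted p = 0.503) without overlap. With each array left out in turn, these ranged from -1.12 to -0.68 and from -2.32 to -1.44. The second Bcan probe set (1369831_at) did not move with the first (r = -0.0048 over 22 arrays) and differed by 0.35 ± 0.34. The first followed the hybridization spikes over the 16 contused arrays (Pearson r = 0.74, permutation p = 0.00124, adjusted over 38 relations 0.0471; Spearman rho = 0.61, permutation p = 0.0142, adjusted 0.144). That r was 0.54 without the 2 arrays farthest from the median. With the spikes as a covariate in the fit, the Bcan difference over all contused groups was -0.63 ± 0.27 (limma adjusted p = 0.455). Ncan read 260.1, 380.2 and 139.8 in normal cord and 237 and 83.9 after contusion. Over all contused arrays it ranged from 6.4, on 1 tempol plus BSO array, to 359, and 9 of 16 lay below the lowest uninjured array, with a difference of -1.06 ± 0.56 (adjusted p = 0.533).

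Acan encodes aggrecan, the lectican of perineuronal nets. Its representative probe set had 153.5 to 333 on uninjured and 46.2 to 851 on contused arrays, a difference of 0.20 ± 0.47 (limma adjusted p = 0.924), and its second gave 0.07 ± 0.50. The 2 correlated at r = 0.09 over 22 arrays. Cspg5, encoding neuroglycan C, a transmembrane proteoglycan of neurons, had 47.1 to 200.1 and 26.8 to 331.5, a difference of -0.07 ± 0.39 (adjusted p = 0.971). The X-ray arrays read 55.4, 29.0 and 26.8, of which the last 2 were the lowest of all arrays, followed by 1 BSO array at 40.3. X-ray minus contusion was -1.47 ± 0.73 for Cspg5 with no overlap and no call (adjusted p = 1.00).

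Ptprz1 encodes a receptor tyrosine phosphatase whose secreted form is phosphacan, a proteoglycan of astrocytes and oligodendrocyte progenitors that binds tenascins and pleiotrophin. Its representative probe set read 343, 504 and 576.5 in normal cord, 1013, 672 and 597 after laminectomy, and 467 and 344 after contusion, and the tempol arrays (356, 283 and 350) were the lowest group. The difference over all contused groups was -0.28 ± 0.24 (limma adjusted p = 0.733). The other probe set (1388015_at) read 340, 342 and 263 in normal cord, 281, 344 and 236 after laminectomy, and 134 and 179 after contusion. Of the contused arrays, 12 of 16 lay below the lowest uninjured array, with a difference of -0.65 ± 0.22 (adjusted p = 0.272). Its residual spread was in the lowest 1.2% of all probe sets.

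**Figure D2:**
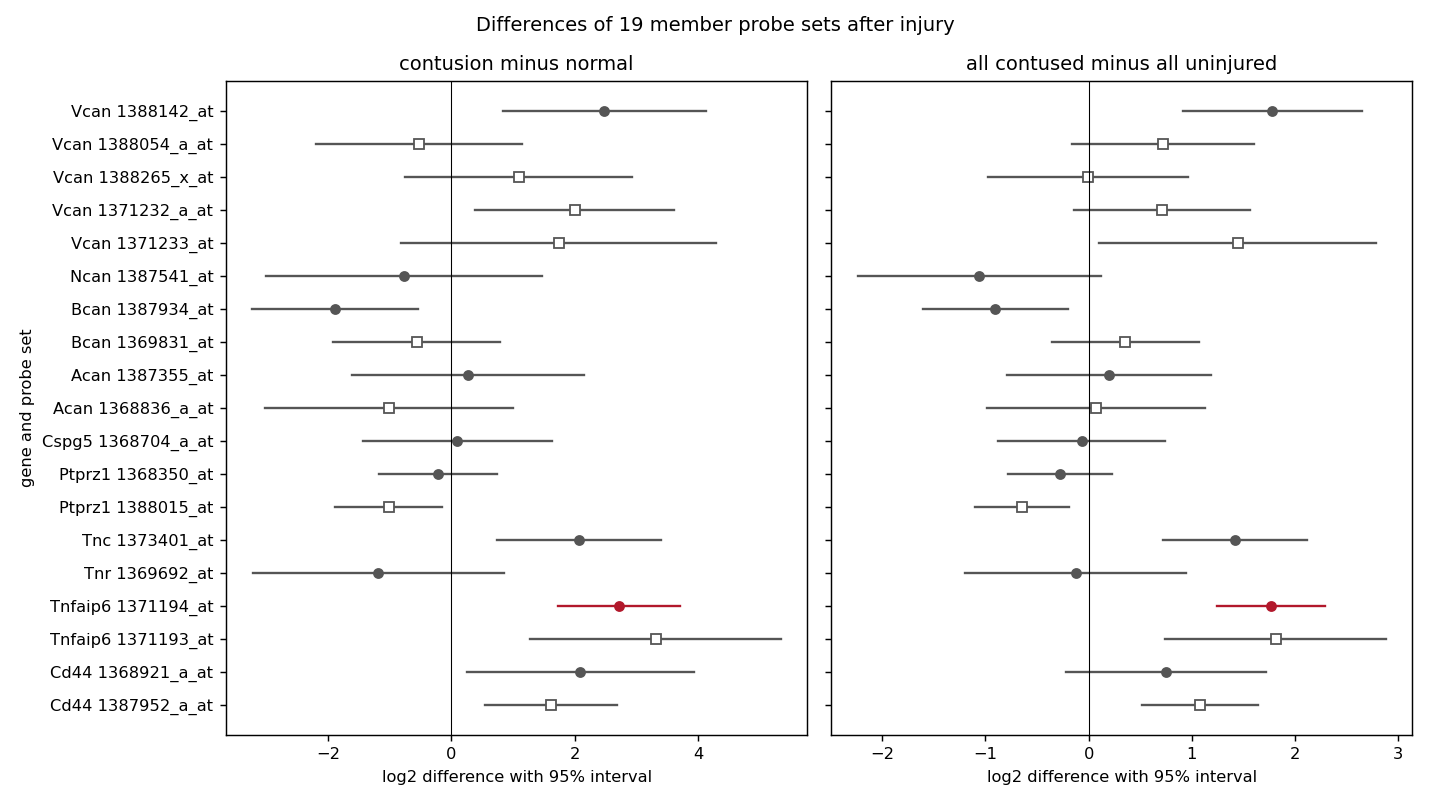
Log2 differences with 95% intervals for the 19 member probe sets, contusion minus normal (left) and all contused minus all uninjured groups (right); circles are representative probe sets, open squares the others, and red marks an adjusted p under 0.05. The red symbol on each side is Tnfaip6 1371194_at, at 2.72 and 1.77, and probe sets of Vcan, Bcan and Cd44 differ within a gene.

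Over the 19 probe sets, counts past an unadjusted p of 0.05 after injury were 6 higher and 2 lower (all contused against uninjured), where 4.95% and 5.41% of all probe sets were, and the median difference was 0.35 against 0.00 over all probe sets. The 6 were Tnfaip6 and Vcan with 2 probe sets each, Tnc, and the second Cd44 probe set; the 2 lower were Bcan and the second Ptprz1 probe set. Arrays did not overlap for 7 higher and 3 lower members between contusion and normal cord, where 10.6% and 11.6% of all probe sets did so, and for 2 higher and 4 lower between contusion and laminectomy (9.52% and 10.3%). Between laminectomy and normal cord 5 members were higher without overlap and none lower (4.43% and 4.14%): both Tnfaip6 probe sets, the representative probe sets of Cd44 and Ptprz1, and Vcan 1388265_x_at. No member was called in that comparison (0.00644% of all probe sets), and none between contusion and laminectomy (0.00322%). At an unadjusted p of 0.05 these limma fits gave 5 members for laminectomy against normal, all higher (2.96% of all probe sets), and 3 for contusion against laminectomy (5.38%). By the median of the 10 representative probe sets, the difference over all contused groups was 0.07, close to 0.01 over all genes.

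Against the mean of the uninjured groups, each contused group had its own Tnfaip6 difference. These were 1.98 ± 0.42 for contusion, 2.10 ± 0.42 for clenbuterol, 2.72 ± 0.37 for X-ray, 1.21 ± 0.37 for tempol, 1.23 ± 0.37 for BSO and 1.35 ± 0.37 for tempol plus BSO, all sharing the same 6 uninjured arrays. Only the X-ray difference was called (6.58-fold, limma adjusted p = 0.00246, where 0.145% of all probe sets were called). Clenbuterol had an adjusted p of 0.0857, and the other 4 had 0.208 to 0.447. For these 5 groups the background was 0.0193% (contusion), 0.0677% (clenbuterol), 0.00322% (tempol), 0.0387% (BSO) and 0.0483% (tempol plus BSO). With only the groups compared in the fit the X-ray difference had an adjusted p of 0.130. Vcan and Tnc were above the uninjured mean in all 6 contused groups, by 1.31 to 2.25 and by 1.04 to 1.95, with no call in any (lowest adjusted p 0.319 and 0.251).

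No treatment changed a member past the threshold relative to untreated contusion. The smallest limma adjusted p over the 19 probe sets and 5 treatments was 0.985, where 0.00322% of all probe sets were called for clenbuterol and 0% for the other 4. At an unadjusted p of 0.05 there was 1 member, the dim probe set Vcan 1371232_a_at with tempol plus BSO (-1.64 ± 0.77, chosen after its value was seen), against 3.98% of all probe sets there, and none with clenbuterol (5.36%), X-ray (4.81%), tempol (2.82%) or BSO (3.46%). Tnfaip6 differed from contusion by 0.12 ± 0.52 with clenbuterol, 0.74 ± 0.47 with X-ray, -0.77 ± 0.47 with tempol, -0.76 ± 0.47 with BSO and -0.63 ± 0.47 with tempol plus BSO. The X-ray arrays were all above and the arrays of the last 3 groups all below the 2 contused arrays. Separation from 2 arrays is common: arrays did not overlap for 4 members higher and 3 lower with clenbuterol (16.7% and 18.8% of all probe sets), 5 and 1 with X-ray (11.5% and 12.7%), 0 and 3 with tempol (7.86% and 8.35%), 3 and 2 with BSO (8.87% and 7.92%), and 2 and 1 with tempol plus BSO (9.54% and 8.42%). The 95% intervals of these differences reached from -0.26 to 1.73 for X-ray and from -1.76 to 0.22 for tempol, so changes of more than 2-fold in those directions remain within them. For the other 9 genes the representative differences ran from -1.59 (Ncan, clenbuterol) to 1.63 (Tnr, BSO), and the median interval over the probe sets reached 1.64 log2 units to either side in the 4 treatments other than clenbuterol. Tempol plus BSO differed from neither tempol nor BSO alone past the threshold in any member (smallest adjusted p 0.999 and 1.00, and no member at an unadjusted p of 0.05, against 4.53% and 4.13% of all probe sets), and the tempol by BSO interaction was not called for any either (Tnfaip6 0.90 ± 0.63; no member at an unadjusted p of 0.05, against 3.44%). In each of these 3 comparisons 0% of all probe sets were called.

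**Figure D3:**
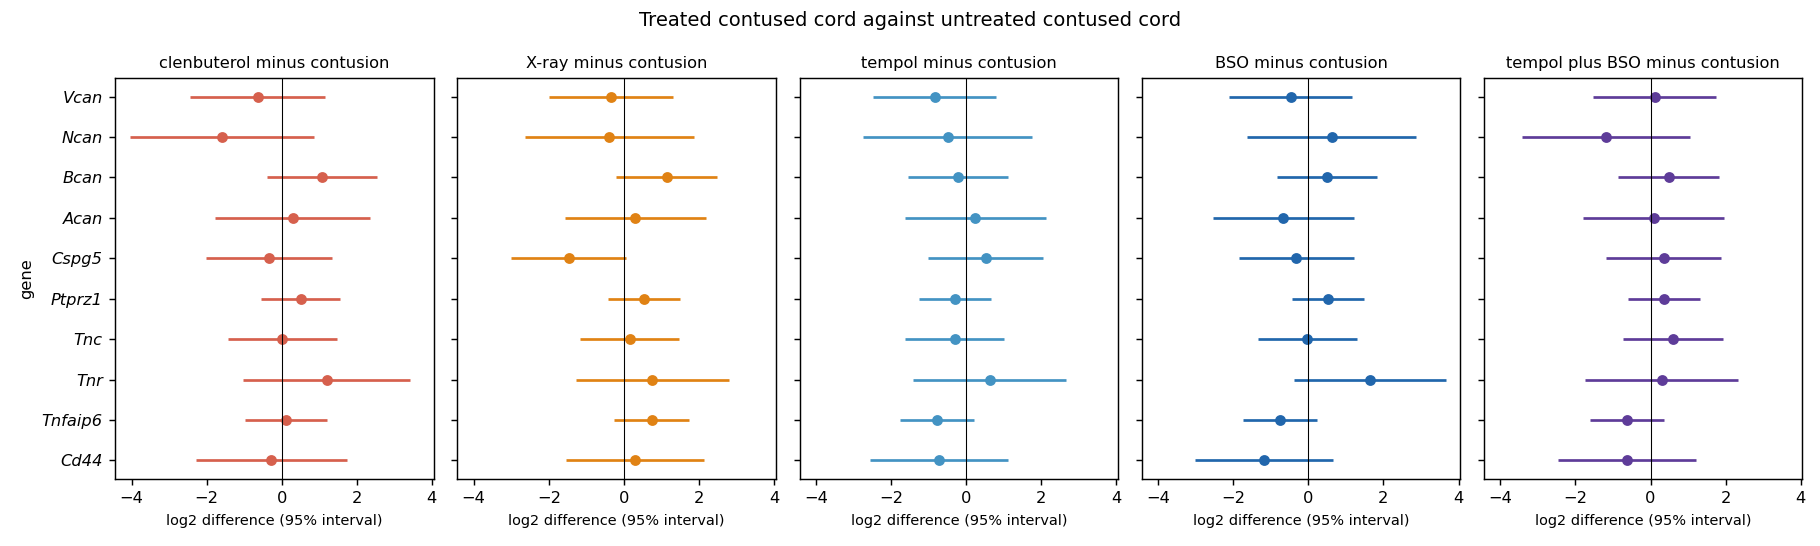
Log2 difference from untreated contusion with its 95% interval for the representative probe sets of the 10 genes (rows), 1 panel per treatment. Every interval spans 0, and Tnfaip6 lies at 0.74 with X-ray and between -0.77 and -0.63 with tempol, BSO and their combination.

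The second Tnfaip6 probe set (1371193_at) had lower geometric means with clenbuterol and X-ray than with tempol, BSO and tempol plus BSO. This is the reverse of the first probe set, but here the arrays overlapped. It read 6.4, 81.3 and 66.1 in normal cord, 83.8, 588 and 272.5 after laminectomy and 174 and 599.6 after contusion. With X-ray it read 178.5, 144 and 230.4, with clenbuterol 306 and 156, and with tempol plus BSO 683, 635 and 249. Like the first it was higher in contused than in uninjured groups, by 1.81 ± 0.51 (limma adjusted p = 0.161), but its X-ray arrays were the lowest contused group and its tempol plus BSO arrays the highest. In a comparison chosen after the values were seen, the mean of clenbuterol and X-ray minus the mean of tempol, BSO and tempol plus BSO was 1.15 ± 0.29 for the representative probe set (adjusted p = 0.151, where 0.0515% of all probe sets were called) and -1.03 ± 0.60 for the second (adjusted p = 0.545). The order of Tnfaip6 among the treatments therefore holds for 1371194_at alone. When the probe sets were averaged per gene, X-ray minus contusion was -0.05, clenbuterol minus contusion -0.22, and X-ray minus the uninjured mean 1.88 with an adjusted p of 0.0914.

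**Figure D4:**
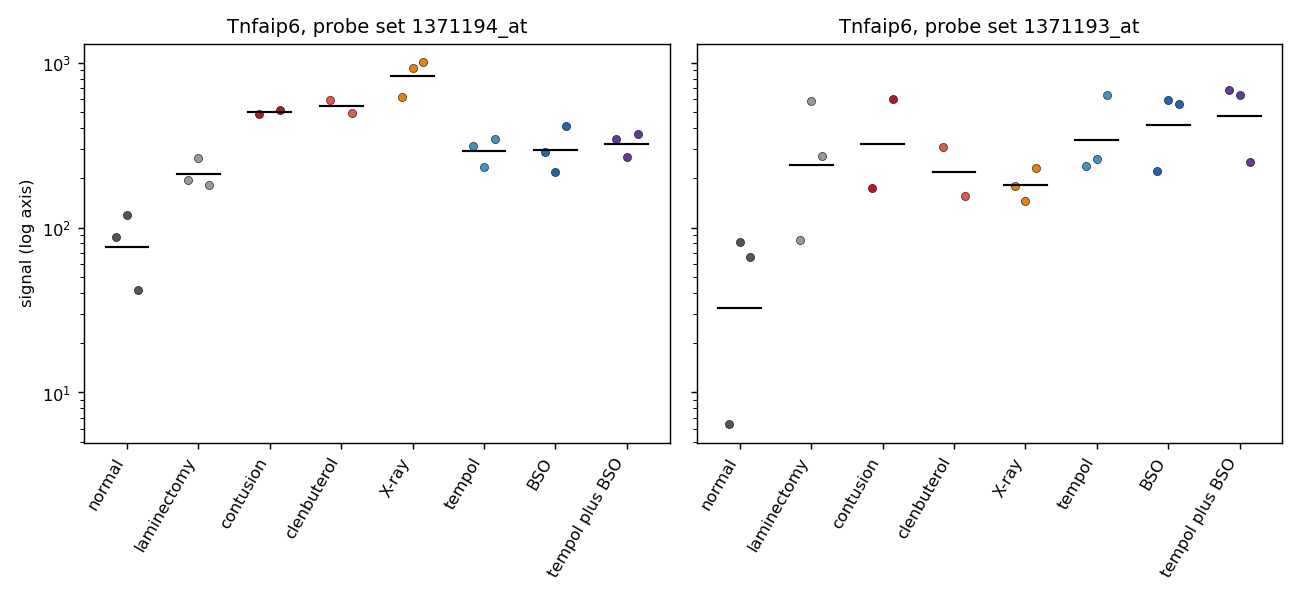
Signal (log axis) of the Tnfaip6 probe sets 1371194_at (left) and 1371193_at (right) on each array, by group, with geometric means as bars. Both are lowest in normal cord, and the X-ray arrays are the highest group on the left (615 to 1006) and the lowest contused group on the right (144 to 230.4).

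Other genes of the same pathway were read from lists by their representative probe sets over all contused against all uninjured groups, where 0.443% of genes were called and the median over all genes was 0.01. Of 18 measured genes of chondroitin sulfate synthesis and sulfation none was called in either direction; the 2 with the smallest p were Chsy1, a chain polymerase (0.75 ± 0.31, limma adjusted p = 0.390), and B3galt6, a linker galactosyltransferase (0.80 ± 0.35, adjusted p = 0.435), and the median was -0.26. Among 18 genes of hyaluronan synthesis, turnover and binding none was called; Itih3, a heavy chain of the inter-alpha-inhibitor that TSG-6 acts on, gave -0.77 ± 0.26 (adjusted p = 0.258) and Has2, a hyaluronan synthase, 0.65 ± 0.27 (adjusted p = 0.406). At an unadjusted p of 0.05 each of these lists held 2 of 18 genes, near the 11.2% of all genes that did so.

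Among 18 further chondroitin and dermatan sulfate proteoglycans none was called and 6 passed an unadjusted p of 0.05, 2 higher and 4 lower, against 11.2% of all genes. The smallest p were those of Srgn, encoding serglycin of blood-derived cells (0.97 ± 0.25, limma adjusted p = 0.129), and Bcam (-1.01 ± 0.39, adjusted p = 0.341). Of 26 receptors and ligands of these proteins 1 rose and none fell: Anxa2, encoding annexin A2, a tenascin-C-binding membrane protein, was higher by 1.52 ± 0.25 (adjusted p = 0.00912). Of 13 lectican-cleaving proteases none was called; 12 had a difference above 0, with a median of 0.45, and 5 passed an unadjusted p of 0.05, all higher, where 50.0% of all probe sets had a difference above 0 and 11.2% of all genes passed that p in either direction. Mmp3, stromelysin, gave 1.44 ± 0.42 (adjusted p = 0.188) and Plau, the urokinase that activates plasminogen, 1.18 ± 0.39 (adjusted p = 0.254).

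Cell type markers were read over all contused against all uninjured groups, where 0.443% of all genes were called. The words rose and fell stand here for called differences. Of 3 neutrophil markers 2 rose, S100a8 by 2.00 ± 0.39 and S100a9 by 2.70 ± 0.40 (limma adjusted p = 0.0318 and 0.00328), and of 7 macrophage markers 2 rose, Cd14 by 1.40 ± 0.25 and Gpnmb by 1.82 ± 0.29 (adjusted p = 0.0146 and 0.00585). The summed neutrophil signal was 232 to 271 in normal cord and 418 to 683 after laminectomy. It was 1084 to 1665 after contusion and 2656 to 3828 after X-ray. Tnfaip6 1371194_at was also highest after X-ray, where 1371193_at had its lowest geometric mean among the contused groups (180.8). With tempol, BSO and tempol plus BSO the neutrophil sum spanned 749.5 to 2318 and overlapped untreated contusion. In those groups Tnfaip6 1371194_at lay below untreated contusion, but 1371193_at had higher geometric means, at 337.8, 418.8 and 476.5 against 322.8. The summed macrophage signal was 14782.5 to 15951 after contusion, 14516 to 15764 after X-ray and 7264 to 7271 with clenbuterol. All these sums add linear signals, so the brightest marker of a list weighs most. Median signal over all arrays was 8049 for Lyz2 and 1723 for Gpnmb, against 75 to 389 for the other macrophage markers. Gfap (13204) was the brightest astrocyte marker and Hbb (4302) the brightest red cell marker. In the clenbuterol group the geometric mean of Tnfaip6 1371194_at was 542.1, against 498.4 after contusion. That of 1371193_at was 218.5, against 322.8 after contusion. Of 8 astrocyte markers 2 fell, Slc4a4 by 1.36 and Aqp4 by 1.23 on the log2 scale. The sum of the 8 was 21717 to 25475 in normal cord, 34417 to 59338 after laminectomy and 10531 to 26490 on contused arrays. Normal cord lay above untreated contusion (15147 to 17371), overlapped clenbuterol (20666 to 26490) and lay below X-ray (25646 to 26185). Gfap, the brightest of these markers, was higher after laminectomy than in normal cord by 1.46 ± 0.38 (limma adjusted p = 0.5545). Of 5 oligodendrocyte progenitor markers 1 fell (Olig1, -1.06 ± 0.22, adjusted p = 0.0441), with a sum of 1869 to 4712 on uninjured and 1108 to 1980 on contused arrays. Among 9 neuron markers 1 fell (Nefl, -1.49 ± 0.29, adjusted p = 0.0318), and among 7 oligodendrocyte and myelin markers 1 fell (Ugt8, -1.39 ± 0.21, adjusted p = 0.00427). The largest change of any called marker was that of Hbb, a haemoglobin gene and 1 of 4 red cell markers, which rose by 2.99 ± 0.34 (adjusted p = 0.000166), and the red cell sum was 781 to 1576 on uninjured and 3392 to 16633 on contused arrays without overlap. None of 7 fibroblast and meningeal or 5 endothelial markers was called, with 2 and 1 at an unadjusted p of 0.05, which 11.2% of all genes passed. The lowest astrocyte sum of any array was in the tempol group (10531 to 18702), where the representative probe sets of Bcan and Ptprz1 were lowest too. Their second probe sets were not: with tempol the geometric mean of Bcan 1369831_at was 762.7, against 564.4 after contusion. That of Ptprz1 1388015_at was 196.5, against 154.8 after contusion. The part of these cell types in the values of the matrix genes was not tested.

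The genes whose signal was most like that of a member are given as a description over the same 22 arrays in 8 groups, among 13479 genes. For Tnfaip6 they were Ccl7, a monocyte-attracting chemokine (r = 0.91), S100a8, a calcium-binding protein of neutrophils (0.91), and Ccl6, another chemokine (0.88). For Tnc they were Egr1, an immediate early transcription factor (r = 0.86), Eya2 (0.85) and Ezr, encoding the membrane linker ezrin (0.84), and for Vcan the closest gene was Tnc itself (0.81). Bcan was closest to Enpp2 (r = 0.91), encoding autotaxin of oligodendrocytes. The closest genes of the other 6 members had r between 0.70 (Ptprz1) and 0.80 (Cspg5).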

How the data were processed

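RNA of rat spinal cord was measured on 22 Affymetrix arrays, 1 per sample, in 8 groups taken from the sample labels. The table deposited by the authors holds linear signal intensity per probe set; the submitters' processing notes name RMA, but its values are linear, and each array has a 2% trimmed mean of about 250, so log2 of the intensity was taken here. Control probe sets (57, which held the 2 empty cells) were left out. GEO's platform annotation gave 20826 probe sets 1 gene symbol, 436 several and 9780 none.

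Group means were fitted with limma 3.58.1 (R 4.3.3; lmFit, contrasts, eBayes) to all 31042 probe sets and 22 arrays, with Benjamini-Hochberg adjustment over all probe sets and a threshold of 0.05. Intervals cover 95%. The number of arrays limits the precision; the moderated SD at the median probe set was 0.83 log2 units. The fit was tested on simulated data. All 10 members are named; of each pathway list only called genes, or the 2 with the smallest p, are named, and the 3 most correlated genes with mean log2 signal of at least 5 are the likeness lists. Members and lists were chosen with earlier results of these data known.

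Alternatives were quantile normalization, a filter at a mean log2 signal of 5, an offset of 32 before the log, eBayes with trend and robust settings, only the groups compared, the replicate number as a block, each array left out, laminectomy 2 and normal 1 left out, the mean of a gene's probe sets and, added after the values were seen, the hybridization spikes as a covariate. Permutation tests of correlations used 100000 resamples. No arrays were duplicates (highest correlation of any pair 0.843).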

Additional observations from a re-analysis of the deposited data

How the results depend on the processing

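No treatment comparison gained a member under any setting run. The replicate number as a block left Tnfaip6 at 2.72 between contusion and normal cord with an adjusted p of 0.104, 0 members called in place of 1, and 0 in the F test (0.0824); it changed no other call. Deviations of same-numbered arrays had a median correlation of -0.0047 over 71 pairs, 7 above 0.1. Differently numbered arrays gave 0.0049 over 140 pairs, 14 above 0.1. With groups of 2 or 3 arrays this cannot settle whether the numbers pair the arrays. Contusion minus normal also had 0 members with only the groups compared and without laminectomy 2 and normal 1, and 0 to 1 over arrays left out in turn. All contused groups had 2 members with an offset of 32 (Tnc added), 3 with trend and robust settings (Tnc and Vcan), 2 without laminectomy 2 and normal 1 (Cd44), 2 with the spike covariate (Vcan, 2.02), 2 with gene means (Tnc), and 1 to 2 over arrays left out. Clenbuterol minus the uninjured mean had 1 (Tnfaip6) with the offset and with trend and robust settings. X-ray minus the uninjured mean had 2 without laminectomy 2 and normal 1 (Cd44 added), and 0 with only the groups compared or with gene means. The F test had 0 without laminectomy 2 and normal 1 (0.0866), and 0 to 1 over arrays left out (adjusted p up to 0.108). Some small differences turned sign. Without laminectomy 2 and normal 1, Vcan laminectomy minus normal was -0.071, Acan contusion minus laminectomy -0.28 and all contused -0.090, Cspg5 contusion minus laminectomy -0.23 and contusion minus normal -0.28, and Tnr contusion minus laminectomy 0.43 and all contused 0.35. With the spike covariate, Cspg5 laminectomy minus normal was 0.025, contusion minus laminectomy -0.23 and contusion minus normal -0.21, Acan contusion minus laminectomy -0.63, contusion minus normal -0.21 and all contused -0.16, and Tnr contusion minus laminectomy 0.14 and all contused 0.26. With gene means, Acan laminectomy minus normal was -0.30, contusion minus laminectomy -0.073 and contusion minus normal -0.37, and Tnfaip6 clenbuterol minus contusion -0.22 and X-ray minus contusion -0.050. With the block, Acan contusion minus laminectomy was -0.0049. Over arrays left out in turn, the range spanned 0 for Acan laminectomy minus normal -0.030 to 0.54, Cspg5 laminectomy minus normal -0.60 to 0.47, Tnr laminectomy minus normal -1.61 to 0.35, Ncan contusion minus laminectomy -1.09 to 0.42, Acan contusion minus laminectomy -0.32 to 0.41, Cspg5 contusion minus laminectomy -0.23 to 0.69, Tnr contusion minus laminectomy -1.53 to 0.43, Cd44 contusion minus laminectomy -0.95 to 1.45, Acan contusion minus normal -0.10 to 0.63, Cspg5 contusion minus normal -0.28 to 0.67, Ptprz1 contusion minus normal -0.43 to 0.010, Acan all contused -0.039 to 0.43, Cspg5 all contused -0.28 to 0.22, Tnr all contused -0.61 to 0.37, Tnfaip6 clenbuterol minus contusion -0.012 to 0.25, Tnfaip6 tempol plus BSO minus tempol -0.020 to 0.28 and Tnfaip6 tempol plus BSO minus BSO -0.092 to 0.37. The cause of these changes was not tested. Signals of a few units, as in Vcan 1371233_at, are the least precise on the log scale.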

Other observations

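Within each array, the log2 difference between the Tnfaip6 probe sets (1371194_at minus 1371193_at) was 1.84 ± 0.63 (SD, n = 5) on the clenbuterol and X-ray arrays and -0.43 ± 0.77 (SD, n = 9) on the tempol, BSO and tempol plus BSO arrays. The arrays did not overlap, with 0.96 to 2.68 in the first set and -1.45 to 0.56 in the second. The sets differed by 2.27 log2 units (two-sided exact permutation test over arrays, p = 0.0004995, the smallest that 2002 regroupings can give). The arrays were put together for this comparison after their values had been seen. For sets that do not overlap the test returns a p at or near its smallest, so this p is not evidence for a difference between treatments. It also treated arrays of different treatments as exchangeable. Over the 16 contused arrays 1371193_at varied with the mean log2 hybridization spike signal (Pearson r = 0.62, permutation p = 0.0118, adjusted over 38 relations 0.149; Spearman rho = 0.65, permutation p = 0.00778, adjusted 0.144; r = 0.64 without the 2 arrays farthest from the median), and 1371194_at gave r = 0.08 (permutation p = 0.774, adjusted 0.891; rho = -0.04, permutation p = 0.883, adjusted 0.936; r = -0.15 without those 2 arrays). With the spikes as a covariate in limma, the difference between these treatment sets was 1.13 ± 0.28 for 1371194_at (adjusted p = 0.117) and -1.15 ± 0.54 for 1371193_at (adjusted p = 0.391), against 1.15 and -1.03 without it. Groups of 2 or 3 arrays are too small to give the relation within a group.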
